A study of Homo sapiens with 8 samples.

Results

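The genes followed here are 6 enzymes, surface proteins and receptors that handle adenosine or NAD, in leukaemia cells with a hairpin against CD39: CD38, adenosine deaminase (ADA), adenosine kinase (ADK), dipeptidyl peptidase 4 (DPP4) and the adenosine receptors ADORA1 and ADORA2A. They were chosen by their gene symbols in the platform annotation, and all 6 were found among 14884 named genes, each with 1 probe set. The cells were MOLM-14, an established human acute myeloid leukaemia line, grown in culture and given doxycycline for 72 h. In 4 arrays the cells carried a hairpin RNA against ENTPD1, the gene of CD39 (shCD39), and in the other 4 a scrambled hairpin (shCTRL). Doxycycline was given to both groups. The protocols call the cells clones without saying how many, and the labels call the arrays of a group technical replicates, so p-values cover only the spread between arrays.

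Extracellular ATP is cut to AMP by CD39 and then to adenosine by CD73. Adenosine signals through receptors coupled to G proteins, of which ADORA1 lowers cAMP and ADORA2A raises it. It is cleared by ADA, which turns it into inosine, or taken up and phosphorylated to AMP by ADK. DPP4, also known as CD26, is a surface peptidase that holds ADA on the outside of the cell. CD38 consumes NAD, makes the calcium-releasing messenger cyclic ADP-ribose, and starts a second route from NAD to extracellular adenosine. The study set out to find genes that depend on CD39, and these genes lie around the adenosine pathway that CD39 feeds.

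The starts of CD38 and ADA are shown because these are the members whose arrays separated by group. Each sequence is the 250 bases before the RefSeq start, on the strand of the gene (GRCh38.p14). Capitals mark every match, on either strand, to 6 searched motifs: the GC box with the letters GGGCGG, the TATA box with the letters TATAAA, the box named for its letters CCAAT, the cAMP response element TGACGTCA, the ETS core GGAAGT and the E-box CACGTG.
CD38, chr4:15778078-15778327, plus strand: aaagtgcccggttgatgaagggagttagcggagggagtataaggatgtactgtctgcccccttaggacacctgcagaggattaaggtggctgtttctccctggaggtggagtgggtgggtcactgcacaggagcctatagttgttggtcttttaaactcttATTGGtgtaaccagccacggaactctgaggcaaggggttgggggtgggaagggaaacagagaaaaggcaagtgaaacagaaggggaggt
ADA, chr20:44651700-44651949, minus strand: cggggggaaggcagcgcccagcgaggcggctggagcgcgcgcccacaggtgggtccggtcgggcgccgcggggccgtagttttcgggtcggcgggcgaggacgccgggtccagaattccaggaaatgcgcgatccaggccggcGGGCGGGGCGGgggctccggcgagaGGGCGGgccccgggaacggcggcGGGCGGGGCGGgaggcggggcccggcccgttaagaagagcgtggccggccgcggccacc

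The upstream sequences were unlike each other in composition. That of ADA was 80.0% G and C, with 41 CpG dinucleotides and 5 GC boxes; in each of the longer runs of capitals 2 boxes overlap by 1 base. Of 35116 such windows, 2.94% had a higher G and C content and 42.6% held a GC box. That of CD38 was 52.4% G and C, with 3 CpG dinucleotides, no GC box and 1 CCAAT box, a motif that 11240 of the windows held. Of the other members, ADK (2 annotated starts) held 4 GC boxes at the first start and 2 at the second, with 1 CCAAT box each. DPP4 held 2 GC boxes and 1 E-box, which is in 6.34% of windows, and ADORA1 held 2 GC boxes and 1 ETS core, which is in 19.5%. None of the member windows searched held a TATA box or a cAMP response element, found in 10.7% and 1.65% of all windows. Windows were found for 5 of the 6 members.

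The values are log2 expression after RMA, the authors' normalization, which sets all arrays to a shared distribution. A difference is therefore relative to the bulk of genes, and in bulk RNA a change in the number of cells expressing a gene cannot be told apart from a change in RNA per cell. ENTPD1, the gene targeted, read 2.42, 2.14, 2.72 and 2.95 in shCD39 arrays 1 to 4. In shCTRL arrays 1 to 4 it read 3.16, 2.88, 3.21 and 4.12. The groups overlapped (log2 difference -0.79, SE 0.25, limma adjusted p = 0.178). ENTPD1 was dim: with array medians of 3.13 to 3.17, it exceeded the median on 3 arrays, all of them shCTRL. Every shCD39 value lay below the medians, and shCTRL array 4 stood well above the other arrays. The size of the knockdown was therefore poorly measured. Over all named genes, 14 or 0.0941% passed limma at an adjusted p of 0.05, 7 higher and 7 lower in shCD39, or 5 higher and 0 lower after quantile normalization. Of the line's markers, 7 of 12 were measured: FLT3, SPI1, ANPEP, CD4, LYZ, MPO and MEIS1. All 7 read above the array median on every array, as did 9313 of 14884 named genes. In shCD39 3 of the 7 had higher and 4 lower means. CD33 and HOXA9 were not among those measured. The arrays were not equally typical: over all named genes shCD39 array 4 correlated at 0.985 on average with the other shCD39 arrays and at 0.989 with the shCTRL arrays. Without it 423 genes passed and without shCTRL array 4 there were 48. With shCTRL array 1 left out the limma count was 0, although 1574 genes had an unadjusted p under 0.05.

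None of the 6 members passed over all genes with all 8 arrays. CD38 and ADA read higher in shCD39 on every array, while ADK, DPP4, ADORA1 and ADORA2A overlapped between the groups. Non-overlap with shCD39 higher was found in 3.61% of all genes, and an unadjusted p under 0.05, which these same 2 members had, in 14.7%. The median log2 difference of the 6 members was 0.13, against 0.01 over all genes. Without shCD39 array 4, CD38 and ADA both passed, as did 0.746% of all genes in the same direction.

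**Figure D1:**
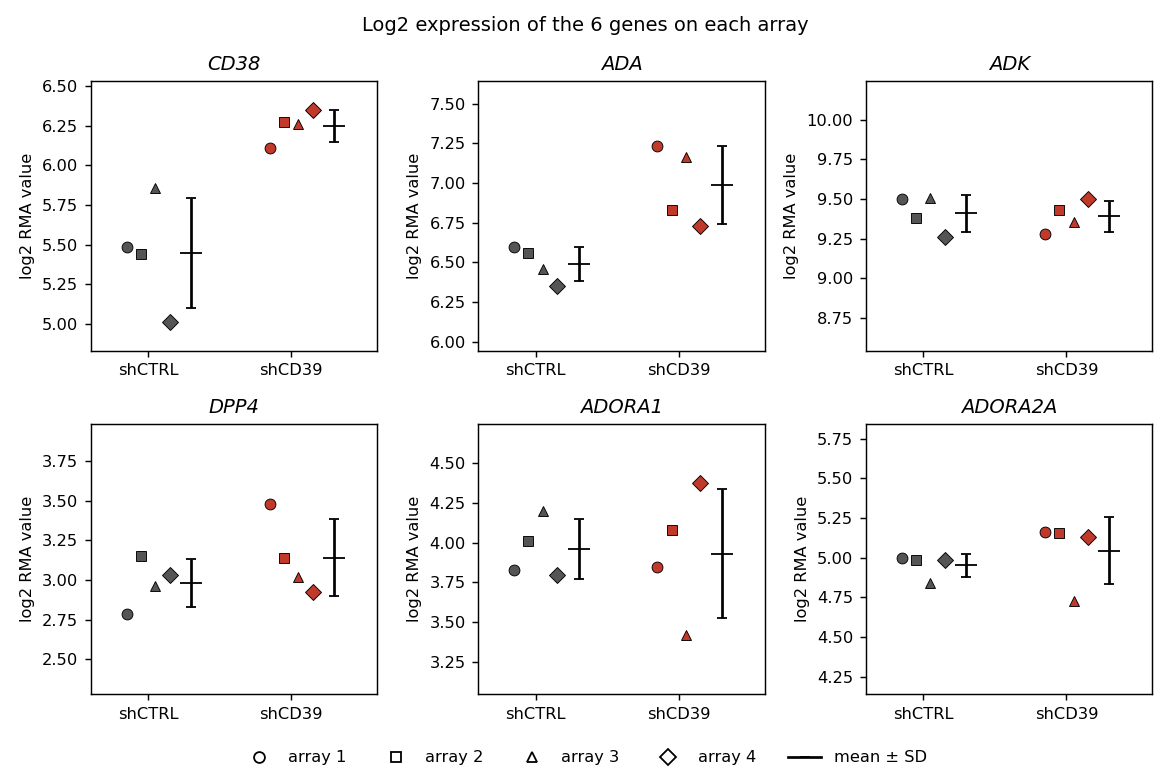
Log2 RMA value (vertical axis, each panel spanning the same height) of the 6 genes on each array, by group; symbols give the array number and bars the mean ± SD of 4 arrays. In CD38 and ADA all shCD39 points lie above all shCTRL points; in the other 4 genes the groups overlap, and array 3 is the lowest of its group for ADORA2A in both groups.

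CD38 gave the largest difference of the 6. It read 6.11, 6.27, 6.26 and 6.35 in shCD39 arrays 1 to 4 and 5.49, 5.44, 5.86 and 5.01 in shCTRL arrays 1 to 4. The lowest shCD39 array thus stood above the highest shCTRL array, number 3. The group means were 6.25 ± 0.10 and 5.45 ± 0.35 (SD, n = 4 each), so the shCTRL arrays were the more scattered ones. The log2 difference was 0.80 (SE 0.16, 95% confidence interval 0.45 to 1.14), or 1.74-fold, with limma adjusted p = 0.0801. The exact permutation p was 0.0286, the smallest that 4 against 4 arrays can give. Any gene whose groups do not overlap takes this value, so it only restates the separation. Of all named genes, 43 had a larger positive difference.

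The size of the CD38 difference depended on the shCTRL side. Without shCTRL array 4, the lowest, it was 0.65, and without shCTRL array 3, the highest, it was 0.93. Among the shCD39 arrays, number 4 had the highest CD38 value. Leaving that array out lowered the difference to 0.76, yet the limma adjusted p became 0.0472, in a fit that called 423 genes.

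Monocyte and macrophage markers, like CD38, had higher means in shCD39. Of 13 such markers 9 were measured, and all 9 had higher means in shCD39 (median log2 difference 0.93). The mean log2 value of that list ran from 5.24 to 5.84 in shCD39 and from 4.83 to 5.08 in shCTRL, without overlap. Such separation was not particular to this list. The 5 measured fibroblast and epithelial markers all had higher means in shCD39. Their list mean did not overlap either (4.05 to 4.17 in shCD39, 3.86 to 4.01 in shCTRL). Within shCD39 the mean of the monocyte and macrophage list was lowest on array 4, which had the highest CD38 value. Within shCTRL that mean was lowest on array 1 and CD38 on array 4, while both were highest on array 3. S100A9, a calcium-binding protein of myeloid cells, differed by 0.93 (SE 0.16, limma adjusted p = 0.0568) and was chosen after its values were seen, while CD14, CD163 and VCAN lay below the array median on every array. With all 8 arrays 0 of the 9 passed in limma and 5 had an unadjusted p under 0.05, against 14.7% of all genes. Without shCD39 array 4, 4 of them passed (CSF1R, TYROBP, S100A8 and S100A9), in a fit that called 0.746% of all genes as higher. Their part in the CD38 result was not tested.

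ADA, the deaminase, was the other member whose groups separated. It read 7.23, 6.83, 7.16 and 6.73 in shCD39 arrays 1 to 4 and 6.59, 6.56, 6.46 and 6.35 in shCTRL arrays 1 to 4. Arrays 1 and 3 were the high ones in shCD39, and array 4, the lowest of them, still read above the highest shCTRL array. The means were 6.99 ± 0.25 and 6.49 ± 0.11 (SD, n = 4 each). The log2 difference of 0.50 (SE 0.13, 95% confidence interval 0.21 to 0.79) is 1.41-fold, with limma adjusted p = 0.131. The exact permutation p was 0.0286, again the value that non-overlap fixes.

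CD38 and ADA differed in where shCD39 array 4 lay. That array was the highest of its group for CD38 and the lowest for ADA. Without it the ADA difference grew to 0.58 (limma adjusted p = 0.0421), and without shCD39 array 1 it was 0.42. Of all named genes, 221 had a larger positive difference than ADA. Lymphoid cells are rich in ADA, and of 9 markers of T and NK cells 6 were measured. They gave 5 higher means and 1 lower, and a list mean from 4.16 to 4.45 in shCD39 and from 4.04 to 4.17 in shCTRL, which overlap. In limma 0 passed, and 1, NKG7, had an unadjusted p under 0.05, against 14.7% of all genes. NKG7, chosen after its values were seen, differed by 0.50 (SE 0.13, limma adjusted p = 0.131). It read higher on every shCD39 array than on any shCTRL array, as did 3.61% of all genes. CD3D, CD3E and CD3G were not among the measured ones, and the part of this list in the ADA result was not tested.

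**Figure D2:**
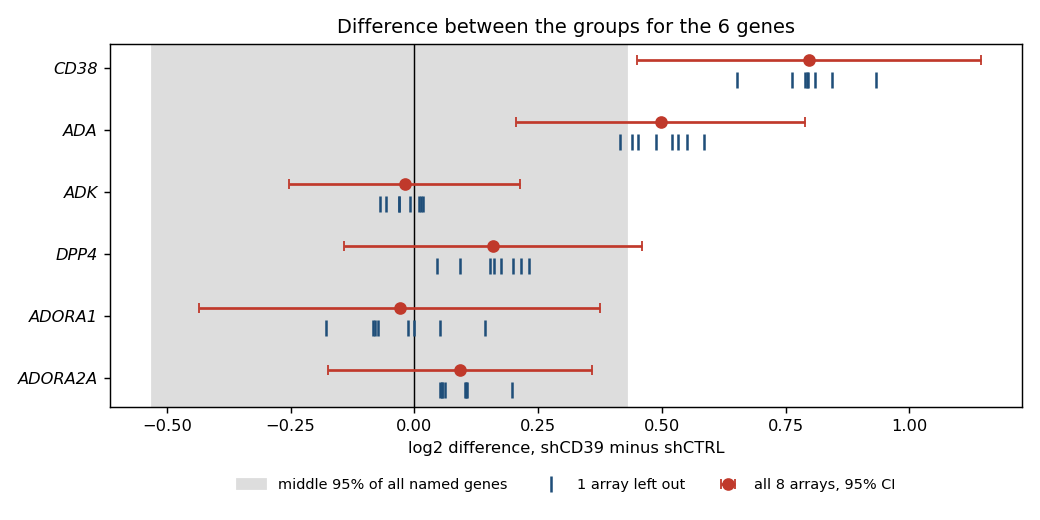
Log2 difference, shCD39 minus shCTRL (horizontal axis), for the 6 genes: red points with 95% confidence intervals from limma on 8 arrays, blue ticks for the fits with 1 array left out, and a grey band for the middle 95% of all named genes (-0.53 to 0.43). The points of CD38 and ADA lie beyond the band, though the interval and the lowest tick (0.42) of ADA reach into it. Every tick of CD38, ADA, DPP4 and ADORA2A is on the positive side, and the ticks of ADK and ADORA1 fall on both sides of 0.

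ADK, the kinase that returns adenosine to AMP, showed no difference that these arrays could resolve. It read 9.28, 9.43, 9.35 and 9.50 in shCD39 arrays 1 to 4 and 9.50, 9.38, 9.51 and 9.26 in shCTRL arrays 1 to 4. The groups overlapped over nearly their whole range. The log2 difference was -0.02 (SE 0.11), with a 95% confidence interval of -0.25 to 0.21 and limma adjusted p = 0.958. The interval corresponds to a ratio of shCD39 to shCTRL between 0.84 and 1.16. The sign turned under quantile and cyclic loess normalization (0.0033 and 0.0423), so no direction is given.

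DPP4 was dim and unresolved. It read 3.48, 3.14, 3.02 and 2.93 in shCD39 arrays 1 to 4 and 2.78, 3.15, 2.96 and 3.03 in shCTRL arrays 1 to 4. These values straddle the array medians of 3.13 to 3.17, and DPP4 exceeded the median on 2 of 8 arrays, so it was the member that a filter on dim genes removed. Only shCD39 array 1 stood above every shCTRL array. The log2 difference was 0.16 (SE 0.14, 95% confidence interval -0.14 to 0.46, limma adjusted p = 0.656), and without shCD39 array 1 it was 0.05.

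The cAMP-lowering receptor ADORA1 scattered most within shCD39. It read 3.85, 4.08, 3.42 and 4.38 in shCD39 arrays 1 to 4 and 3.83, 4.01, 4.20 and 3.80 in shCTRL arrays 1 to 4. Array 3 was the lowest and array 4 the highest of the shCD39 group, and all shCTRL values lay between them. The SD was 0.41 in shCD39 and 0.19 in shCTRL. The log2 difference was -0.03 (SE 0.19, 95% confidence interval -0.43 to 0.37, limma adjusted p = 0.963), and it turned to 0.14 without shCD39 array 3 and to 0.05 without shCTRL array 3.

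The cAMP-raising receptor ADORA2A was tight apart from 1 array in each group. It read 5.16, 5.15, 4.73 and 5.13 in shCD39 arrays 1 to 4 and 5.00, 4.98, 4.84 and 4.99 in shCTRL arrays 1 to 4. The array numbered 3 was the low one in both groups. With all arrays the log2 difference was 0.09 (SE 0.12, 95% confidence interval -0.17 to 0.36, limma adjusted p = 0.79). Without both arrays numbered 3, a setting chosen after these values were seen, it was 0.16 (limma adjusted p = 0.711), and without shCD39 array 3 alone it was 0.20. ADORA2A-AS1, its antisense partner and also chosen after its values were seen, had a log2 difference of -0.26 (SE 0.14, limma adjusted p = 0.43).

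Other receptors of the pathway were thinly covered by named probe sets. Of 19 further purine receptors 1 was measured, the receptor ADORA2B, with a log2 difference of 0.06 (SE 0.12, limma adjusted p = 0.869). Of 8 G protein genes 1 was measured, GNAS, the stimulatory subunit that couples ADORA2A to cAMP, with -0.11 (SE 0.10, limma adjusted p = 0.647). None of 7 nucleoside transporters was measured.

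Genes that make or recycle purines were taken list by list. Of 10 measured genes of de novo purine synthesis, 8 had lower and 2 higher means in shCD39, with a median log2 difference of -0.32. None passed in limma over all genes, 6 had an unadjusted p under 0.05, all of them lower, against 14.7% of all genes in either direction. Without shCD39 array 4, PFAS and GMPS, 2 of the 10, passed in limma as lower, in a fit that called 2.10% of all genes as lower. PFAS, which catalyses a middle step of the pathway, read 7.50, 7.29, 7.20 and 7.36 in shCD39 and 7.89, 7.94, 7.84 and 7.81 in shCTRL, a difference of -0.53 (SE 0.10, limma adjusted p = 0.0783). GMPS, which makes GMP, had -0.48 (SE 0.15, limma adjusted p = 0.172). In PFAS, GMPS and ADSL (-0.36, chosen after its values were seen), 3 of the 10, every shCD39 array read below every shCTRL array, as it did in 4.23% of all genes.

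The salvage enzymes around ADA and ADK had no common direction. Of 19 measured, 9 had higher and 10 lower means, with a median of -0.01. The largest differences were those of deoxycytidine kinase DCK (-0.51, SE 0.18, limma adjusted p = 0.224) and of AHCYL1, a relative of adenosylhomocysteine hydrolase (-0.42, SE 0.16, limma adjusted p = 0.239). In AHCYL1 the groups overlapped because shCTRL array 4 read 7.92, inside the shCD39 range. None of the 19 passed in limma with all arrays. DCK and AHCYL1, 2 of the 19, had an unadjusted p under 0.05, against 14.7% of all genes. Without shCD39 array 4 DCK passed at -0.68 (limma adjusted p = 0.0414), in a fit that called 2.10% of all genes as lower. Of 11 enzymes that break down extracellular nucleotides 7 were measured, CD73 not among them. Those 7 gave 4 higher and 3 lower means (median 0.09), and 5 of them lay below the array median on most arrays. In limma 0 passed, with 3 at an unadjusted p under 0.05, against 14.7% of all genes. The extremes were ENTPD1 itself and ENTPD8, another member of the CD39 family, at 0.33 (SE 0.13, limma adjusted p = 0.265).

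Around CD38, NAD-making enzymes included differences both ways. Of 15 measured, 10 had higher and 5 lower means (median 0.14). In limma 0 passed, while 4 higher and 2 lower ones had an unadjusted p under 0.05, against 14.7% of all genes. NAMPT, the rate-limiting enzyme of NAD salvage, read 6.18, 6.16, 6.06 and 6.63 in shCD39 and 6.77, 6.73, 7.13 and 6.62 in shCTRL. Only shCD39 array 4 and shCTRL array 4 overlapped. The difference was -0.55 (SE 0.15, limma adjusted p = 0.138). Without shCD39 array 4 NAMPT passed at -0.68 (limma adjusted p = 0.0292), in a fit that called 2.10% of all genes as lower. KMO, an enzyme of the route from tryptophan, had 0.54 (SE 0.24, limma adjusted p = 0.326), its highest value lying at 4.67 in shCD39 array 2.

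The other NAD consumers lay on both sides of 0. Of 11 measured, 6 had higher and 5 lower means (median 0.02). In limma 0 passed, and 2 had an unadjusted p under 0.05, against 14.7% of all genes. The closest relative of CD38, the ectoenzyme BST1, had 0.08 (SE 0.15, limma adjusted p = 0.862) and was chosen after its value was seen. PARP2, a poly(ADP-ribose) polymerase that acts in DNA repair, had -0.41 (SE 0.12, limma adjusted p = 0.158). Without shCD39 array 4 PARP2 passed at -0.50 (limma adjusted p = 0.0355), in a fit that called 2.10% of all genes as lower. The deacetylase SIRT1 had -0.35 (SE 0.14, limma adjusted p = 0.269). Of 10 channels that answer the calcium messengers made by CD38, 6 were measured, 3 with higher and 3 with lower means (median -0.02). The extremes were RYR3 at 0.17 and TPCN2 at -0.17, and 0 passed in limma, adjusted or unadjusted. RYR3 was dim, below the array median on every array.

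Peptidases related to DPP4, its substrates and its partners had a median of -0.0035 over 14 measured genes, 6 higher and 8 lower. In limma 0 passed, and 2 had an unadjusted p under 0.05, against 14.7% of all genes. CXCL11 and CXCL10, chemokines trimmed by DPP4, had -0.41 (SE 0.15, limma adjusted p = 0.24) and -0.28 (SE 0.23, limma adjusted p = 0.629). CXCL10 was dim, above the array median on 3 of 8 arrays.

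**Figure D3:**
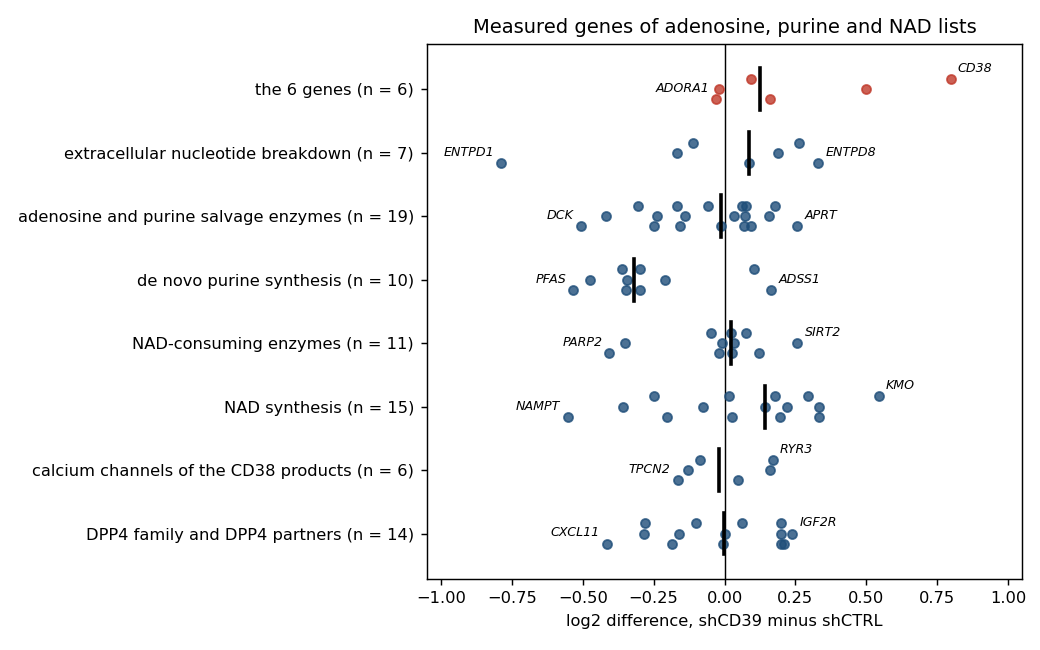
Log2 difference, shCD39 minus shCTRL (horizontal axis), of every measured gene in the 6-gene group (red) and in 7 lists of related genes (blue); black bars are medians and the lowest and highest gene of each row are named. The de novo purine synthesis genes lie mostly left of 0 (median -0.32), and CD38 is the highest point of the plot at 0.80.

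For CD38 and ADA the genes nearest in pattern were sought among the other named genes, by the root mean square difference over the 8 arrays between the log2 deviations of the 2 genes from their own means. Nearest to CD38 were IER3, an immediate early gene, at 0.18, SOCS1, an inhibitor of cytokine signalling, at 0.19, and the receptor gene GPR179 at 0.19. The own deviations of CD38 had a root mean square of 0.46. Within shCD39, array 4 was highest for CD38 and GPR179 (3.42) but lowest for IER3 (5.60) and SOCS1 (6.33). GPR179 was dim, above the array median on 3 of 8 arrays, and its groups overlapped. Nearest to ADA were FOS, a subunit of the AP-1 transcription factor, at 0.06, the fructose bisphosphatase TIGAR at 0.09 and LPP, an adhesion protein, at 0.09, against 0.30 for ADA itself. FOS read 5.91, 5.63, 5.95 and 5.40 in shCD39 arrays 1 to 4 and 5.25, 5.29, 5.16 and 4.96 in shCTRL arrays 1 to 4. As in ADA, arrays 1 and 3 were the high shCD39 arrays and shCTRL array 4 was the lowest. The genes were picked for this likeness, so no test is given.

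**Figure D4:**
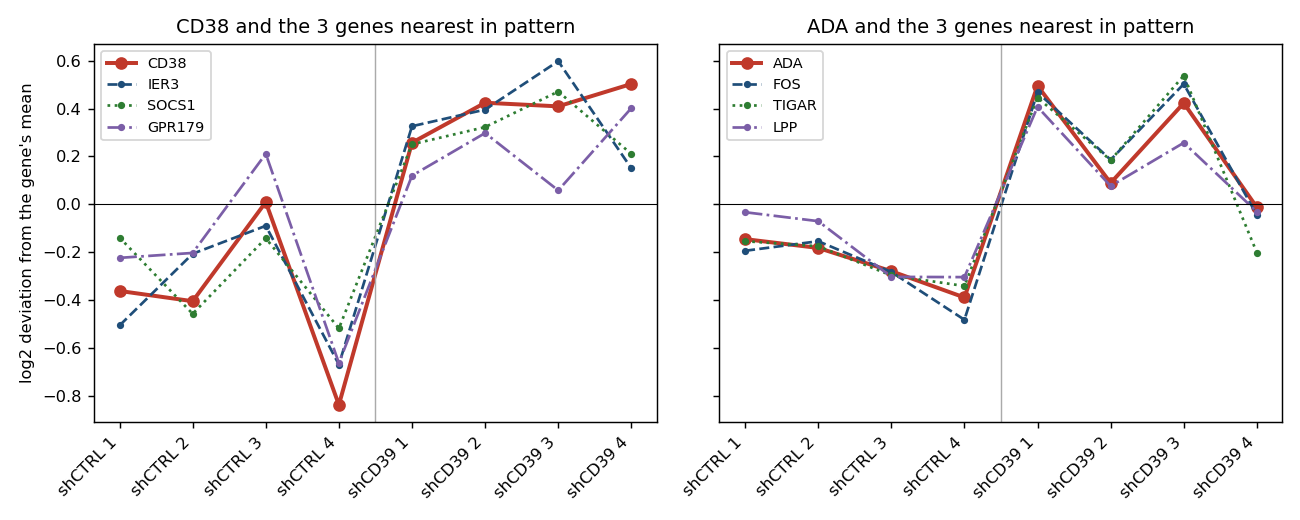
Log2 deviation of each gene from its own mean over the 8 arrays (vertical axis) on each array (horizontal axis), for CD38 (left) and ADA (right) in red with the 3 nearest genes; lines only join points of a gene. The genes beside ADA peak with it in shCD39 arrays 1 and 3, and those beside CD38 have, like it, their lowest value in shCTRL array 4. Within shCD39, array 4 is highest for CD38 and GPR179 but lowest for IER3 and SOCS1.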

How the data were processed

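Total RNA was labelled with biotin and hybridised to 8 arrays, per the labels' protocols. The authors deposited log2 expression values per probe set, made with RMA in the oligo package per the submitters' processing notes (version and genome build not given in the sources used here). Of 53617 probe sets, 16098 had exactly 1 symbol in the platform annotation, updated through Entrez IDs against RefSeq, and 37519 are unnamed here. Where a gene had several probe sets, the one with the highest mean over all arrays was taken, which left 14884 genes. Array medians were 3.13 to 3.17, correlations between arrays 0.974 to 0.987 over all probe sets and 0.980 to 0.992 over named genes, and 0 pairs were identical. Precision is limited by the number of arrays, and the labels do not say whether the arrays came from separate cultures.

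Groups were compared with limma 3.58.1 in R 4.3.3 (lmFit, eBayes, 2-sided, Benjamini-Hochberg over all 14884 genes, threshold 0.05). The code was run on simulated data with independent noise on each array, to see that added differences were recovered. That does not check error rates in the real arrays. The 6 members were also compared by 2-sided exact permutation of arrays. Members and lists were chosen with earlier results of these data known. Named genes are the members, ENTPD1, the list genes past the threshold (up to 4 a list) or else the 2 with the largest change, and the 3 nearest genes of CD38 and ADA; others are marked where they appear. Alternatives were 3 normalizations, a filter on dim genes, probe set choices, variance models, array weights, a replicate block and arrays left out. Promoters came from RefSeq (GRCh38.p14). Figures were made in Python 3.11.15 (matplotlib 3.10.9).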

Additional observations from a re-analysis of the deposited data

Results flagged for a closer look

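In each of 44 sets of 4 arrays (22 named genes in both groups), the lowest or highest array was examined for a gap to its neighbour above Dixon's 95% critical value; 6 gaps were found, where chance gives about 1 in 20. ADORA2A had such an array in both groups: shCD39 array 3 read 4.73 against 5.13 to 5.16 in the others, and shCTRL array 3 read 4.84 against 4.98 to 5.00. ENTPD8 read 3.82 in shCTRL array 3 against 4.12 to 4.18. ADORA2B read 6.65 in shCD39 array 4 against 7.01 to 7.07, and PARP2 read 5.96 there against at most 5.60. TPCN2 read 6.05 in shCD39 array 1 against 5.40 to 5.45.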

How the results depend on the processing

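Over 19 alternatives each, CD38 stayed positive (0.62 to 0.93) and so did ADA (0.42 to 0.58); adjusted p ran from 0.0472 to 0.275 and from 0.0421 to 0.464, and both passed in 1 alternative, without shCD39 array 4. With 1 array left out, CD38 gave 0.65 to 0.93, ADA 0.42 to 0.58, and the number of members past the threshold was 0 to 2. ADK, ADORA1 and the total count were unstable. ADK turned positive with quantile (0.0033) and cyclic loess normalization (0.0423) and without both arrays numbered 3 (0.0247), and with 1 array left out gave -0.0699 to 0.018. ADORA1 gave -0.18 to 0.14 with 1 array left out and 0.22 without both arrays numbered 3. DPP4 and ADORA2A kept their sign in 18 and 19 alternatives. The 14 genes of the whole table became 5 with quantile normalization, 23 without dim genes, 6 over all probe sets, 22 with a trend and robust prior, 124 with array weights, 368 without both arrays numbered 4, 0 without both arrays numbered 3 (1427 at an unadjusted p under 0.05) and 0 to 423 with 1 array left out; of the last, shCTRL array 1 gave 0 (1574 unadjusted). With the replicate number as a block 6 passed; CD38 (adjusted p = 0.12) and ADA (0.145) did not. Same-numbered arrays did not deviate together (correlations -0.03 to 0.06, 2 of 8 arrays nearest their own number), so the numbers are not taken as pairs. Leaving out both arrays numbered 3 was chosen after seeing the data. With 4 arrays a group, differences the size of ADK or ADORA1 cannot be resolved.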
